A study of Mus musculus with 8 samples.

Results

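The liver X receptors (LXR) and a set of genes they control were followed in livers of mice given an antibody against CD47. The 8 genes are the receptor genes Nr1h3 (LXR alpha) and Nr1h2 (LXR beta), the gene of their shared partner Rxra (RXR alpha), and 5 target genes, Abca1, Abcg1, Pltp, Lpcat3 and Mylip. They were taken by name, through the gene symbols of the authors' deposited comparison table, from 54309 genes in the count table, and all 8 were among the 15472 genes abundant enough to be tested. Male C57BL/6 mice, with no genetic change named in the labels, were kept for 16 weeks on the Fructose-Palmitate-Cholesterol (FPC) diet, used to bring on steatohepatitis, in both groups alike. From week 8 to week 16 they were injected intraperitoneally with control IgG or with the CD47 antibody (200 µg per mouse, as written beside the antibody). The series describes 7 to 8 mice per group, of an age that the labels do not give, and 4 liver libraries per group were measured, called IgG 1 to 4 and antiCD47 1 to 4. No untreated or normal-diet liver was measured here, so each value is set against IgG in diseased liver.

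LXR are nuclear receptors that bind DNA as pairs with an RXR and are switched on by oxysterols and by desmosterol, that is, by a cell's own excess sterol. In macrophages that have engulfed dying cells the sterol of the meal activates LXR, which raise the exporters ABCA1 and ABCG1 and so move cholesterol out to apolipoprotein A-I and HDL. In hepatocytes the same receptors also drive fatty acid synthesis through SREBP-1c, remodel phospholipids through LPCAT3 and limit lipoprotein uptake through MYLIP. Engulfment itself was not measured in these libraries, which hold RNA of whole liver.

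Total counts were between 43691472 and 55477484 per library, and the members had between 597 and 26976 counts in a library, so that counting error at the lowest of these values is about 8.11% (95% Poisson interval 550 to 647 counts). All 8 hepatocyte markers checked were measured, with summed levels of 52119 to 66844 CPM over the 8 libraries. CPM is a gene's count relative to the library's total on a fixed scale, here corrected for composition by TMM. In whole liver, fewer cells of a type and less RNA per cell cannot be told apart. The 12 Kupffer cell and macrophage markers checked were all measured and none was at 0, and 7 of them rose in antiCD47 (Clec4f, Timd4, Cd5l, Marco, Folr2, Fcna and Cd163). Their summed level was 466 to 659 CPM in IgG and 644 to 984 CPM in antiCD47. Of 8 markers of recruited and lipid-associated macrophages only Itgam passed, higher, with summed levels of 126 to 199.97 and 99.7 to 172 CPM. All 6 neutrophil and all 5 red cell markers rose as well, 5 of 6 cholangiocyte and 2 of 6 stellate cell markers fell (Col1a1 and Col1a2 of the latter), and of 6 endothelial markers 0 passed (edgeR; 1 had an unadjusted p under 0.05, DESeq2 and limma voom called 0).

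Under CD47 antibody 3 of the 8 genes passed the test: Abca1 and Nr1h3 rose, and Lpcat3 fell. Abca1, the exporter of cholesterol and phospholipid to lipid-poor apolipoprotein A-I, was 1.83-fold higher. Nr1h3 was 1.19-fold higher, and Lpcat3, which places polyunsaturated fatty acids into phospholipids, was at 0.768 of its IgG level. The remaining 5, among them the companion exporter gene Abcg1, did not pass. Calls were made by the two-sided quasi-likelihood test of edgeR where p, adjusted by Benjamini-Hochberg over all genes tested, was under 0.05. By that rule 10.8% of all tested genes were called, 5.44% higher and 5.4% lower, against 37.5% of these 8. For these 3 the groups also did not overlap, against 19.6% of all tested genes, 9.51% with antiCD47 higher and 10.1% with it lower. At an unadjusted p under 0.05 stood 5 of the 8, against 32.5% of all. The 8 log2 fold changes had a median of 0.08 and the 15472 of all genes one of -0.01. Targets did not share a direction, with 1 of 5 higher, 1 lower and 3 not past.

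**Figure D1:**
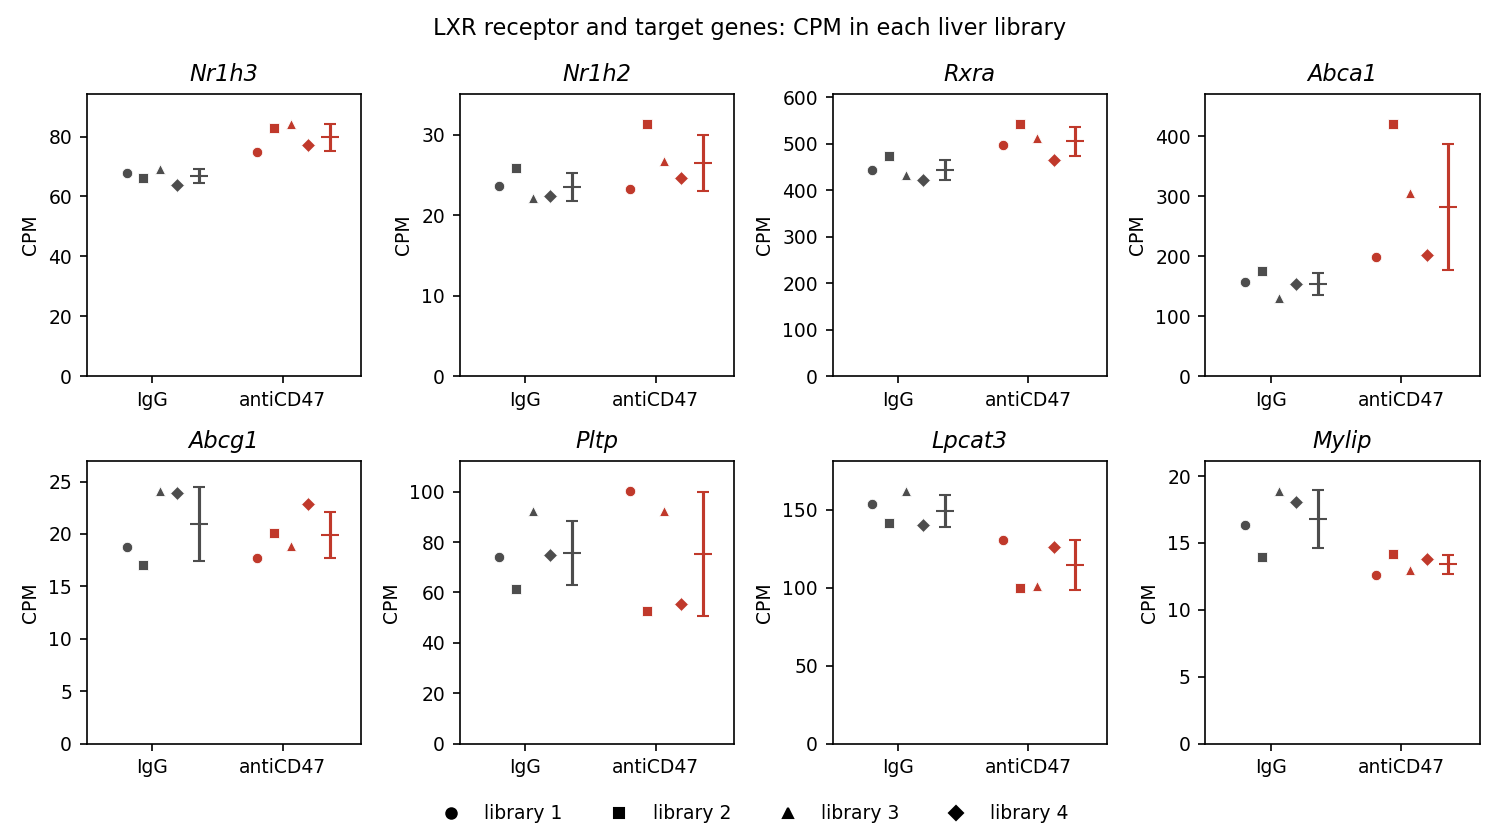
CPM (vertical axes, from 0) of the 8 genes in each library of IgG and antiCD47 liver, with 1 marker shape per library number and bars for the mean ± SD of 4 libraries. The 4 antiCD47 points lie above all IgG points for Nr1h3 and Abca1 and below all of them for Lpcat3, and the groups overlap in the other 5 panels.

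Among the receptors, Nr1h3, the LXR form of liver and macrophages, was at 67.7, 66.2, 69.3 and 63.9 CPM in IgG 1 to 4. It was at 74.8, 82.7, 84.3 and 77.2 CPM in antiCD47 1 to 4. Every antiCD47 library was above every IgG library, with means of 66.8 ± 2.32 and 79.7 ± 4.50 CPM (SD, n = 4 each). The log2 fold change was 0.26 ± 0.06 (SE; edgeR adjusted p = 0.0336), a rise of 19.4%. Libraries of a group agreed closely, with a coefficient of variation of 3.48% in IgG and 5.65% in antiCD47. The call depended on scaling and on single libraries, and was lost in 9 of 18 alternatives. With plain library totals, where the median log2 fold change over all genes was -0.19, that of Nr1h3 was 0.07 (edgeR adjusted p = 0.407; 0.00309 to 0.407 over 18 alternatives).

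Nr1h2, the LXR form found in nearly all tissues, was at 23.7, 26.0, 22.1 and 22.4 CPM in IgG and at 23.3, 31.4, 26.7 and 24.7 CPM in antiCD47. The groups overlapped, with 2 of 4 antiCD47 libraries above all IgG libraries, and the log2 fold change of 0.17 ± 0.10 did not pass (edgeR adjusted p = 0.262). Rxra, whose product is the DNA-binding partner of both receptors, was at 443, 474, 433 and 423 CPM in IgG and 498, 543, 513 and 466 CPM in antiCD47. Only antiCD47 4 lay within the IgG range. Its log2 fold change of 0.19 ± 0.07 did not pass either (edgeR adjusted p = 0.109), and by library totals it was 0.00. The log2 ratio of Nr1h3 to Nr1h2 counts within a library, which no scaling alters, was 1.51 ± 0.12 in IgG and 1.60 ± 0.13 in antiCD47 (SD, n = 4; exact permutation p = 0.314, two-sided). A change in the balance of the receptor forms was thus not detectable with these libraries, and the smallest p that 4 against 4 allows is 0.0286.

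Abca1 had the largest change of the 8. In IgG 1 to 4 it was at 157, 175, 130.3 and 153 CPM, and in antiCD47 1 to 4 at 198, 420.5, 305 and 202 CPM. All antiCD47 libraries were above all IgG libraries, but antiCD47 2 and 3 stood well above antiCD47 1 and 4. The means were 154 ± 18.3 and 281 ± 105 CPM (SD, n = 4), and the log2 fold change was 0.87 ± 0.23 (SE; 95% interval 0.36 to 1.38; edgeR adjusted p = 0.0410). Without antiCD47 2 the log2 fold change was 0.61 and the call was lost (edgeR adjusted p = 0.0596, and 0.00151 to 0.115 over 18 alternatives). The call was also lost without IgG 1, 2, 3 or 4, without antiCD47 3 (log2 0.80 to 0.94) and in the robust fit, in all 7 of the 18.

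The promoter of Abca1 is shown because the gene is a textbook LXR target with a response element close to its start, of the kind called DR4, which is a pair of half-sites 4 bases apart. The 250 bases before the RefSeq start (mouse GRCm38.p6, chr4:53159896-53160145, minus strand, an older build than the GRCm39 named for the counts) are printed 5′ to 3′, and the capitals mark the 16 bases closest to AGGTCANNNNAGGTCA on either strand.
Abca1: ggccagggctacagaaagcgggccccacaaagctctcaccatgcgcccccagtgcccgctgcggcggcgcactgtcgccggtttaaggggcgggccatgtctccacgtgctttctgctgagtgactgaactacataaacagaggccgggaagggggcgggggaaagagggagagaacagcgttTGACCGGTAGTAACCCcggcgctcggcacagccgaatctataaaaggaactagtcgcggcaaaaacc
That best match lies 67 to 52 bases before the start on the opposite strand and differs from the 12 fixed letters at 3 places. A match at least that close was found in 18.5% of all 32851 RefSeq promoter windows of this length, so the letters alone do not set the gene apart.

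Like Abca1, the summed levels of several marker lists were highest in antiCD47 2 and 3. These were the Kupffer cell and macrophage list (7 of 12 markers rose), the hepatocyte list (1 of 8 rose, Hnf4a) and the neutrophil list (6 of 6 rose). Most of the hepatocyte sum was Alb, at 41018 to 44610 CPM in IgG and 43202 to 52171 CPM in antiCD47. Alb did not pass (edgeR adjusted p = 0.376). Hnf4a and Tat were also highest in antiCD47 2 and 3, while Ttr and Asgr1 were not. Cps1 was highest in antiCD47 2 (1855 CPM) but not raised in antiCD47 3 (1149 CPM). Tat and Cps1 did not pass (edgeR adjusted p = 0.591 and 0.493). Of the first list Vsig4, Adgre1, Csf1r, Cd68 and Mpeg1 did not pass, and the list of recruited and lipid-associated macrophages had a median log2 fold change of -0.23. Taken as a log2 ratio within each library to the mean of the 12 Kupffer cell and macrophage markers, Abca1 was at 3.08, 3.72, 2.21 and 3.54 in IgG and 2.64, 2.97, 2.67 and 2.57 in antiCD47. The groups overlapped, and the spread was wider in IgG. Each marker counted equally in that mean, and Marco alone was at 0.467 to 13.3 CPM in IgG. Of the 12 markers 7 rose and none fell, so a lower ratio follows in part from the makeup of the list. The mean ratio was 3.14 ± 0.68 in IgG and 2.71 ± 0.17 in antiCD47, a difference of -0.42 (exact permutation p = 0.257, two-sided). The difference was -0.73 without IgG 3 (exact permutation p = 0.0571, the smallest that 3 against 4 allows) and -0.23 without IgG 2 (exact permutation p = 0.514). Against the resident markers alone it was -0.92 (exact permutation p = 0.143). That set holds the 7 markers that rose and Vsig4, so a lower ratio to it follows in part from its makeup. Hepatocytes express Abca1 too, and these libraries do not say which cells the transcripts came from. Summed hepatocyte markers were 52119 to 55770 CPM in IgG and 55316 to 66844 CPM in antiCD47, and summed neutrophil markers 6.38 to 8.53 and 15.4 to 33.5 CPM. The part of any of these cell types in the Abca1 result was not tested.

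Abcg1, which loads cholesterol onto HDL particles already formed, was at 18.8, 17.1, 24.1 and 23.9 CPM in IgG and at 17.7, 20.1, 18.8 and 22.8 CPM in antiCD47. The groups overlapped fully, and its log2 fold change was -0.08 ± 0.13 (edgeR adjusted p = 0.712; 95% interval -0.36 to 0.21).  Set directly against each other per kilobase of exon, the log2 ratio of Abca1 to Abcg1 was 2.38 ± 0.41 in IgG and 3.25 ± 0.55 in antiCD47 (SD, n = 4), and 3 of 4 antiCD47 libraries were above all IgG libraries. The difference of 0.87 did not pass (exact permutation p = 0.0571, two-sided; 0.171 adjusted over the 3 ratios compared), so unequal change of both exporters was not shown beyond the spread between libraries.

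**Figure D2:**
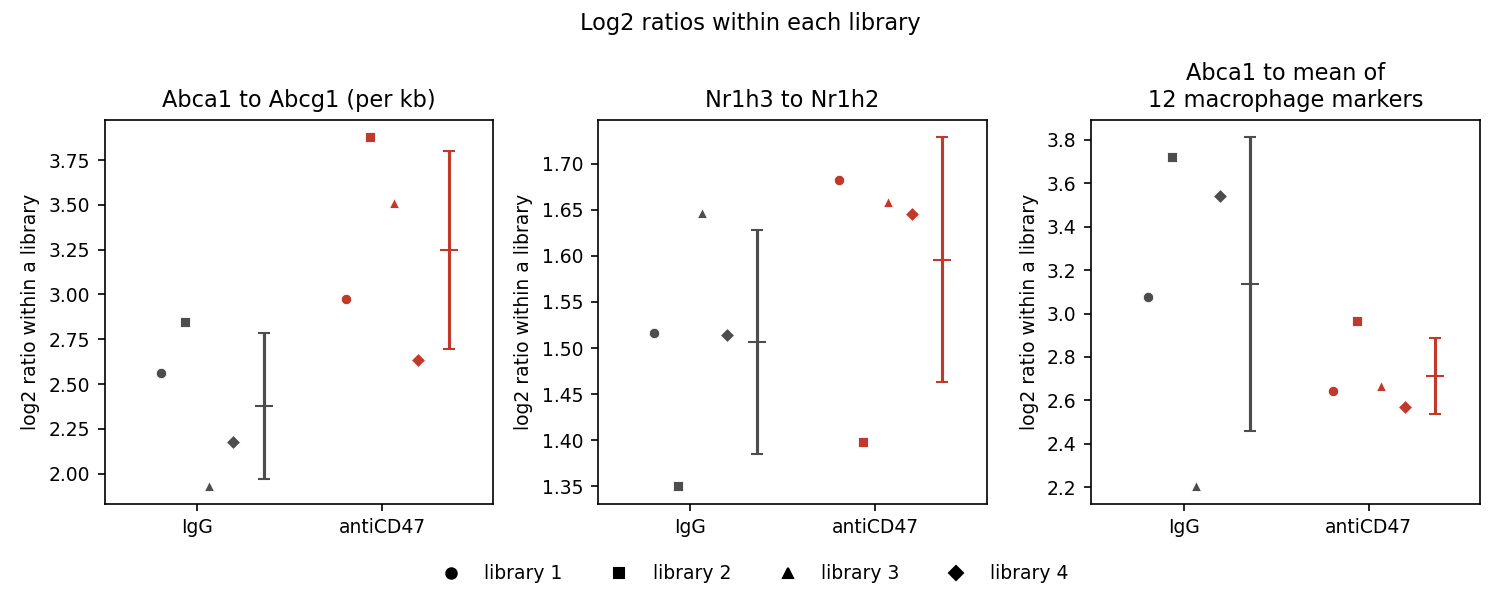
Log2 ratios within each library (vertical axes) for Abca1 to Abcg1 per kilobase, Nr1h3 to Nr1h2, and Abca1 to the mean of 12 macrophage markers, with bars for the mean ± SD of 4 libraries. The groups overlap in all 3 panels, and antiCD47 2 stands below the other antiCD47 libraries for Nr1h3 to Nr1h2.

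Lpcat3, an acyltransferase gene that LXR raise in liver and whose product makes membranes and VLDL rich in polyunsaturated lipid, was at 154, 141, 162 and 141 CPM in IgG 1 to 4. In antiCD47 1 to 4 it was at 131, 99.9, 101 and 126 CPM. No library of one group reached the range of the other, and the lowest values were those of antiCD47 2 and 3, where Abca1 was highest. The means were 149 ± 10.3 and 115 ± 16.3 CPM, and the log2 fold change was -0.38 ± 0.10 (SE, n = 4; edgeR adjusted p = 0.0445), a fall of 23.2%. It was negative in all 18 alternative fits, from -0.56 to -0.32, but the call was lost in 6 of them, those without IgG 1, 2, 3 or 4 or without antiCD47 2 or 3 (edgeR adjusted p = 0.0543 to 0.124; from 0.00635 over all 18).

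The Lpcat3 promoter (GRCm38.p6, chr6:124662854-124663103, plus strand, from RefSeq) is set beside that of Abca1 because these LXR targets moved in opposite directions. The capitals again mark the best DR4 match.
Lpcat3: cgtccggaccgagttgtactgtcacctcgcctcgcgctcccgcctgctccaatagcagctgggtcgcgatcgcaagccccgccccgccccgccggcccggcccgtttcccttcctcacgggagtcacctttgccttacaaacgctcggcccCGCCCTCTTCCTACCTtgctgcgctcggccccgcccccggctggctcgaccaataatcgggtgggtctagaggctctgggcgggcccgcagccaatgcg
This window is richer in G and C (70.0%) than that of Abca1 (61.6%), where the median of all windows is 52.4%. Its best match, 99 to 84 bases before the start, differs at 4 places, and 70.6% of all windows hold a match at least that close.

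Best DR4 matches of the members with a single best place at up to 4 differences are listed to compare them, each read along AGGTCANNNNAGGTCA, with capitals for the letters that match a fixed place.
Abca1: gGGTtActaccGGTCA
Rxra: gtGgCAggaaAGGTCA
Nr1h3: AGGTCccggcAcGgCc
Nr1h2: AGtTCcggaaAGtTCt
Lpcat3: AGGTaggaagAGGgCg
The Rxra sequence, at its downstream RefSeq start, has the same number of differences as that of Abca1. Those of Nr1h3, Nr1h2 and Lpcat3 have 4 differences each. A link between these matches and the changes in RNA was not tested. Windows of Pltp, Mylip and the upstream start of Rxra held nothing closer than 5 differences. RefSeq windows were found for 7 of the 8 genes. Elements farther from a start are not covered by these windows.

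Mylip encodes the ubiquitin ligase, also called IDOL, that sends lipoprotein receptors to the lysosome. It was at 16.3, 13.99, 18.9 and 18.0 CPM in IgG and 12.6, 14.2, 12.9 and 13.8 CPM in antiCD47. All antiCD47 libraries except antiCD47 2, which lay just above IgG 2, were below all IgG libraries. Its log2 fold change of -0.33 ± 0.10 did not pass (edgeR adjusted p = 0.0616; 0.0196 to 0.170 over 18 alternatives), while DESeq2 (adjusted p = 0.0356) and scaling by library totals (-0.52; edgeR adjusted p = 0.0221) called it lower.

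Pltp, whose product moves phospholipid between lipoproteins and into HDL, was at 74.1, 61.3, 92.5 and 74.8 CPM in IgG and at 100.1, 52.8, 92.3 and 55.2 CPM in antiCD47. The antiCD47 libraries fell on both sides of the IgG range, 1 above it and 2 below it. Its log2 fold change was -0.01 ± 0.22 (edgeR adjusted p = 0.980), with an interval of -0.49 to 0.48 that spans changes in either direction.

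**Figure D3:**
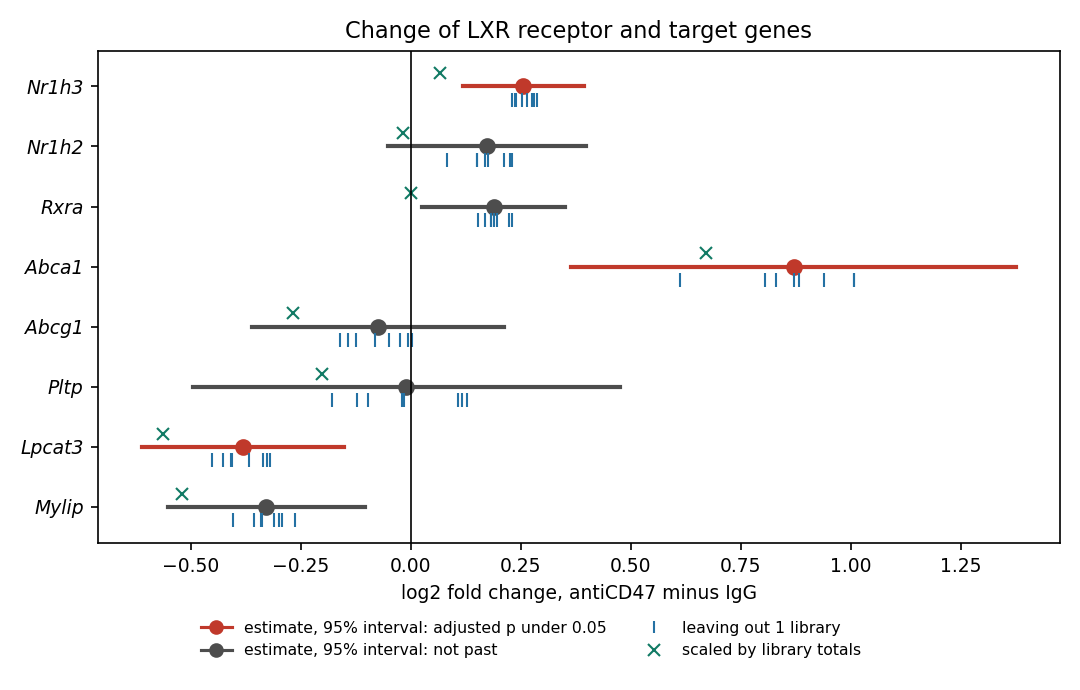
Log2 fold change of antiCD47 minus IgG (horizontal axis) for the 8 genes, as the estimate with its 95% interval, with ticks for the 8 fits that leave out 1 library and a cross for scaling by library totals. Abca1 and Nr1h3 lie above 0 and Lpcat3 below 0 in every fit drawn, and the cross lies at or near 0 for Nr1h3, Nr1h2 and Rxra.

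The calls depended on several single libraries. The number of members called was 0 without IgG 1, IgG 3, IgG 4, antiCD47 2 or antiCD47 3 (edgeR; 4 members had an unadjusted p under 0.05 in each of these fits), 1 without IgG 2 (Mylip) and 3 without antiCD47 1 or antiCD47 4. Of all genes, 1.11%, 0.587%, 0.0128%, 4.81% and 0.134% were called in the first 5 of these fits, and 10.2%, 23.1% and 10.5% in the others. With all libraries, scaling by library totals called 3 members (Abca1, Lpcat3 and Mylip) and 23.1% of all genes. DESeq2 and limma voom with quality weights each called 5 members, adding Rxra and Mylip, and 18.9% and 28% of all genes. The directions of Nr1h3, Abca1 and Lpcat3 held in all 18 alternatives. As their groups did not overlap, leaving out 1 library could hardly have reversed them. In the authors' deposited table, Nr1h3 and Abca1 were higher (adjusted p = 0.00154 and 0.00259) and Lpcat3 and Mylip lower (adjusted p = 0.0057 and 0.0376). The other 4 members did not pass there. Which group that table takes as reference is not stated, and its sign was read as antiCD47 minus IgG because it matched for 1623 of the 1624 genes called here that it lists.

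To compare levels between genes, CPM were divided by exon length in kilobases. In IgG the order was Rxra (81.2 ± 4.04 CPM per kilobase), Lpcat3 (45.7 ± 3.15), Pltp (29.5 ± 5.01), Nr1h3 (26.5 ± 0.92), Abca1 (14.9 ± 1.76), Nr1h2 (7.02 ± 0.52), Mylip (5.20 ± 0.67) and Abcg1 (2.87 ± 0.49; SD, n = 4 each). Libraries of neighbours in this order overlapped for Pltp and Nr1h3 only. In antiCD47 Abca1 was at 27.1 ± 10.1 CPM per kilobase, and its libraries (19.1 to 40.6) overlapped with those of Lpcat3 (30.6 to 40.1), Pltp (20.6 to 39.1) and Nr1h3 (29.7 to 33.5). Abcg1 remained the lowest, at 2.73 ± 0.30 CPM per kilobase.

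Beyond the members, 86 of 87 listed genes of the LXR pathway were tested, and 4 rose and 4 fell (9.30%, against 10.8% of all tested genes), with a median log2 fold change of -0.05. Co-regulators bind LXR-RXR and silence or activate their targets. Of 13, Ncor1 (log2 0.33 ± 0.09; edgeR adjusted p = 0.0458) and Tbl1xr1 (log2 0.48 ± 0.10; adjusted p = 0.0240), both parts of the co-repressor complex that holds unliganded receptors silent, rose and none fell. Ncor1 was at 95.1 ± 5.30 CPM in IgG and 119 ± 14.2 CPM in antiCD47, and Tbl1xr1 at 47.95 ± 4.24 and 66.9 ± 7.88 CPM (SD, n = 4 each). By library totals none of the 13 rose and 1 fell. Among 10 tested nuclear receptors that also pair with RXR, the retinoic acid receptor gene Rarb (log2 -0.78 ± 0.16; edgeR adjusted p = 0.0264) and the thyroid hormone receptor gene Thra (log2 -0.63 ± 0.12; adjusted p = 0.0198) fell. The other RXR genes, Rxrb (24.2 CPM in antiCD47, 22.7 in IgG) and Rxrg (2.92 and 3.49 CPM), did not pass (edgeR adjusted p = 0.286 and 0.268).

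**Figure D4:**
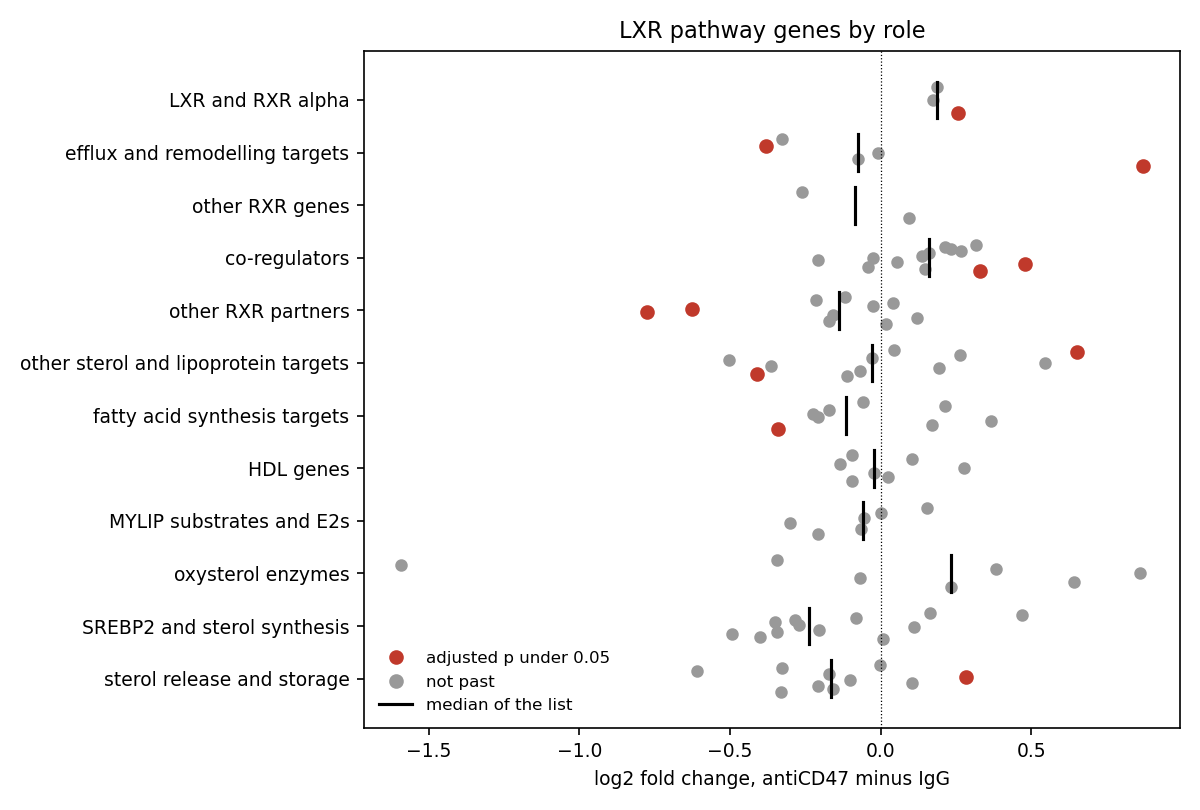
Log2 fold change of antiCD47 minus IgG (horizontal axis) for each tested gene of the LXR pathway, in 12 groups by role, with a bar at the median of each group. Genes past an adjusted p of 0.05 are drawn in red, and they lie on both sides of 0.

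Of 11 other LXR targets of sterol and lipoprotein handling 1 rose and 1 fell by edgeR. At an unadjusted p under 0.05, 3 were higher and 3 lower. DESeq2 called 3 of the 11 higher and 1 lower, and limma voom 1 higher and 1 lower. Cd5l, a secreted protein of macrophages and a marker in the Kupffer cell list as well, rose from 129 ± 30.1 to 203 ± 32.6 CPM (log2 0.65 ± 0.16; edgeR adjusted p = 0.0377). Abcg8 forms with Abcg5 the exporter that moves sterol from hepatocytes into bile. It was at 90.7, 95.6, 101 and 91.3 CPM in IgG and 72.2, 82.3, 61.9 and 68.5 CPM in antiCD47. The groups did not overlap, and it fell (log2 -0.41 ± 0.09; edgeR adjusted p = 0.0268). Abcg5, the other part of that exporter, had means of 90.7 ± 9.41 CPM in IgG and 83.9 ± 13.8 CPM in antiCD47 (edgeR adjusted p = 0.530). Apoe, an apolipoprotein gene that LXR raise in macrophages, had means of 22183 ± 1890 and 21140 ± 1715 CPM (edgeR adjusted p = 0.672).

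Srebf1, the gene of SREBP-1 through which LXR drive fatty acid synthesis, was the only 1 of 8 lipogenic targets to pass. It was at 290, 314, 283 and 290 CPM in IgG and at 234, 215, 218 and 261 CPM in antiCD47, and the groups did not overlap. It fell by 0.34 on the log2 scale (SE 0.08; edgeR adjusted p = 0.0294), opposite in direction to Abca1. Scd1, the desaturase gene, had means of 25323 ± 5005 CPM in IgG and 32636 ± 8087 CPM in antiCD47 and did not pass (edgeR adjusted p = 0.235). Of 7 HDL genes none passed (edgeR; 1 had an unadjusted p under 0.05, DESeq2 and limma voom called 0). Apoa1, the gene of the acceptor of sterol from ABCA1, had means of 6318 ± 627 and 5920 ± 607 CPM (edgeR adjusted p = 0.573).

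No sterol was measured, and enzyme RNA does not show the supply of LXR ligands. Of 7 enzymes that make or remove oxysterols, 0 passed by edgeR (4 had an unadjusted p under 0.05, 2 higher and 2 lower). DESeq2 called 2 of these 7 higher and 1 lower, and limma voom 0. Closest to the threshold were Sult2b1, lower (log2 -1.59, edgeR adjusted p = 0.0530, at only 0.301 CPM in IgG), and Cyp7b1, higher (log2 0.86, edgeR adjusted p = 0.0540). Of 12 genes of SREBP2 and sterol synthesis, which fall when a cell is rich in sterol, 0 passed by edgeR (2 lower at an unadjusted p under 0.05; DESeq2 called 1 lower and limma voom 0). Srebf2 itself had means of 46.2 ± 1.57 and 46.5 ± 4.31 CPM (edgeR adjusted p = 0.953). Among 10 genes for release and storage of engulfed sterol, Nceh1, which frees cholesterol from its stored esters, rose from 68.2 ± 2.90 to 83.1 ± 5.72 CPM (log2 0.28 ± 0.07; edgeR adjusted p = 0.0314), and by edgeR none fell. At an unadjusted p under 0.05, 4 of the 10 were lower; DESeq2 called 2 lower, limma voom 0 and limma voom with quality weights 3. The groups of 3 of the 10 did not overlap with antiCD47 lower, against 10.1% of all tested genes. By library totals, 6 of the 10 fell, against 20.4% of all tested genes, and Nceh1 did not pass. The calls of Ncor1, Cd5l and Nceh1 were lost in 9, 8 and 7 of 18 alternatives, those of Tbl1xr1 and Srebf1 in 5, and those of Rarb, Thra and Abcg8 in 4.

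Relatives of the members were read from the same fit. Of 8 other ABCA transporter genes 0 passed by edgeR (3 lower at an unadjusted p under 0.05; DESeq2 called 1 lower and limma voom 0). Among 6 other lysophospholipid acyltransferase genes 0 passed by edgeR (3 lower at an unadjusted p under 0.05; DESeq2 called 1 lower and limma voom 0). Lbp, the relative of Pltp that binds bacterial lipopolysaccharide and is made by hepatocytes in the acute phase, rose from 65.3 ± 19.1 to 221 ± 89.0 CPM (log2 1.76 ± 0.30; edgeR adjusted p = 0.0170).

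As a description, up to 5 genes whose log2 CPM followed each of 4 members most closely over the 8 libraries were listed by Pearson's r, among tested genes with a symbol that is no predicted gene model. For Abca1 they were Abce1 (r = 0.994), Tmem39a (0.993), Ints5 (0.993), Dnajb9 (0.992) and Sec23b (0.991). Lpcat3 was followed by Usp20 (0.993), Dhrs3 (0.986), Marveld1 (0.981) and Tom1l1 (0.980). Nr1h3 was followed by Cwc15 (0.990), Fcna (0.986), Map1lc3b (0.978), Mtdh (0.975) and Wdr55 (0.975). Those closest to Abcg1 were Zfp799 (0.992), Adgrl4 (0.979), Rab8b (0.965), Abr (0.962) and Myo1f (0.956). The libraries share their treatment groups, and these values are among the highest of all tested genes. Fcna is also one of the Kupffer cell markers that rose.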

How the data were processed

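Polyadenylated RNA of 8 liver libraries was sequenced after TruSeq preparation, per the labels' protocols. The authors deposited whole-number counts per Ensembl gene, not normalized. The submitters' processing notes name Salmon 1.3.0, DESeq2 1.32.0 and GRCm39 with no role for each; no source says if the counts are rounded estimates. In a second file the authors gave, per the file headers, each gene's mean normalized count (signal), log2 fold change and its error, p-values and a rank score. Only its signs and adjusted p-values were used, since no source states shrinkage or the reference group.

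Columns were matched by title, and 0 were left unused. Libraries of a group differed beyond sampling noise (chi-square per degree of freedom of at least 24.2). Whether each library is a separate mouse is not stated, so p-values measure the spread between these libraries. Same-numbered libraries deviated together with r of -0.02 to 0.16, so the numbers were not taken as pairs. Genes were filtered with filterByExpr, scaled with TMM and tested with glmQLFTest in edgeR 4.0.16 (R 4.3.3), with SE taken as the log2 fold change over the root of F. Exon lengths came from GENCODE M21 (GRCm38). Ratios were tested by exact permutation in scipy 1.17.1, with a prior count of 2 in log2 CPM. DESeq2 1.42.0 and limma 3.58.1 (voom, with and without quality weights) were alternatives, as were other scalings and filters and leaving out each library. The scripts were tested on simulated data. Members and lists were chosen with earlier results of these data known. Named were all members, 7 pathway genes whatever their result, any other listed gene past the threshold, and the 5 genes most like the called members and Abcg1; 2 genes that this rule names are not reported here. Scd1, Rxrb, Rxrg, Cyp7b1, Sult2b1, Alb, Ttr, Asgr1, Tat and Cps1 were chosen after their values were seen. Figures were drawn with matplotlib 3.10.9.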

Additional observations from a re-analysis of the deposited data

Results flagged for a closer look

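Of the 22 groups of 4 libraries checked (the CPM of 8 genes and 3 log2 ratios, in each treatment), 1 held a library far from the others. The log2 ratio of Nr1h3 to Nr1h2 was 1.40 in antiCD47 2, while the other antiCD47 libraries lay at 1.65 to 1.68. Chance marks about 1 in 20 such groups. AntiCD47 2 also had the highest Abca1, Nr1h2 and Rxra of all libraries. Without it the difference in the log2 ratio of Nr1h3 to Nr1h2 between treatments was 0.16 (exact permutation p = 0.114, two-sided). The smallest p that 3 against 4 allows in that test is 0.0571.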

How the results depend on the processing

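Of 15472 genes 1678 passed the threshold, and leaving out 1 library in turn gave 2 to 3630; for the members the count went from 3 to between 0 and 3. Scaling by library totals gave 3581 genes (428 higher, 3153 lower), upper quartile scaling 634 higher and 969 lower, DESeq2 3145, limma voom with quality weights 4331, and an adjusted p of 0.1 gave 3574. DESeq2 and quality weights each called 5 members, with Rxra higher and Mylip lower added; the cause was not tested. Library totals and upper quartile scaling each called Abca1, Lpcat3 and Mylip but not Nr1h3, and the robust fit lost Abca1 (edgeR adjusted p = 0.0511). With the replicate number as a block 2425 genes and 3 members passed. For the ratios the mean difference over same-numbered libraries equals that between groups by arithmetic (0.87, 0.09 and -0.42), so only p could differ. It was 0.125, 0.125 and 0.375 (exact sign-flip test, where 0.125 is the smallest possible). The numbers are not known to pair mice. Of the 396 alternative values of 22 named genes, 316 kept their side of the threshold, 72 calls were lost, 8 were gained and 0 called genes changed sign. The 396 include genes that did not pass, which cannot lose a call, so the share of calls lost was higher than 72 of 396. The difference in the ratio of Abca1 to macrophage markers was -0.92 with resident markers alone (exact permutation p = 0.143). Those were Vsig4 and the markers that rose, which in part fixes a lower ratio. With a prior count of 0.5 and all 12 markers, of which 7 rose and none fell, the difference was -0.43. Leaving out 1 library moved the ratio of Abca1 to Abcg1 to between 0.66 and 1.08, that of Nr1h3 to Nr1h2 to between 0.04 and 0.16, and that of Abca1 to macrophage markers to between -0.73 and -0.23. Counting error was at most 8.11% for a member in a library.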
